A study of Mus musculus with 10 samples.

Results

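The 9 genes described here encode the receptors, co-receptors and transcription factors through which cells receive Hedgehog signals, namely Ptch1, Smo, Gas1, Cdon, Boc, Sufu, Gli1, Gli2 and Gli3. They were chosen by their place in the pathway, with earlier results of these data known, and they are 9 of the 35705 genes measured. RNA was sequenced from dissected medial knee cartilage of 10 individual mice, with 1 library per mouse. Of the mice, 5 were wild-type controls and 5 were null for Mir324, the gene of the microRNA miR-324, and the mice had no treatment. Strain, age, sex and litter, any batches of sequencing, and the way the null allele was made were not given in the sources used here. The labels name articular cartilage as the tissue and chondrocytes, the cells of cartilage, as the cell type.

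Hedgehog proteins are secreted signals. Without them, the receptor Ptch1 keeps the membrane protein Smo inactive. When a Hedgehog protein binds Ptch1, helped by the co-receptors Gas1, Cdon and Boc, Smo becomes active in the primary cilium and the Gli transcription factors are freed from their inhibitor Sufu, after which Gli2 acts mainly as an activator, Gli3 makes less of its repressor form, and transcription of Gli1 and of Ptch1 itself goes up. In the skeleton, Indian hedgehog made by maturing chondrocytes controls the growth plate and the formation of osteoblasts, the cells that build bone.

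Mir324 yields a mature strand from each arm of its hairpin, and both are absent by design from the null mice, so they are shown first. Bases 2 to 8, the seed that pairs with a target, are in capitals, and the sequences are those of RefSeq (GRCm38.p6), on the plus strand at chr11:70012060-70012082 for the 5p strand and chr11:70012095-70012114 for the 3p strand.
mmu-miR-324-5p: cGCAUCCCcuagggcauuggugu
mmu-miR-324-3p: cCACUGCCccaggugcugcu
The seeds of the strands differ, and each was searched separately in the annotated 3′ untranslated regions of the 9 genes.

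Matches to the seed of miR-324-3p lay in the leading transcripts of Smo, Ptch1, Gli3, Sufu and Cdon, and none lay in those of Gli1, Gli2, Gas1 and Boc. The letters searched were GGCAGTG for miR-324-3p and GGGATGC for miR-324-5p, in the sense of the messenger RNA. A match to all of bases 2 to 8 is a 7mer-m8 site, and a match to bases 2 to 7 followed by an A is a 7mer-A1 site. The sites are shown as 20 bases of messenger RNA sense with the matching letters in capitals, taken from the GRCm38 annotation.
Smo 7mer-m8: cagagtctgactGGCAGTGt
Smo 7mer-A1: gcaccttaaaactGCAGTGA
Sufu 7mer-m8: gctgccgagggtGGCAGTGc
Ptch1 7mer-A1: agagtacacgtgaGCAGTGA
Gli3 7mer-A1, first: gttatttagcactGCAGTGA
Gli3 7mer-A1, second: gatgttctcaagtGCAGTGA
Cdon 7mer-A1: tttcccacaaattGCAGTGA
The Smo sites are at chr6:29760525-29760544 and chr6:29760913-29760932, and the Sufu site is at chr19:46488269-46488288, all on the plus strand. The Ptch1 site is at chr13:63508471-63508490 on the minus strand. The Gli3 sites are at chr13:15727554-15727573 and chr13:15728842-15728861, and the Cdon site is at chr9:35505939-35505958, on the plus strand. Smo and Sufu were the genes with a 7mer-m8 match, which 15.4% of 12587 tested genes with a 3′ untranslated region also had. A 7mer-A1 match to miR-324-3p, as in Smo, Ptch1, Gli3 and Cdon, was held by 9.94% of them. A match of either kind to miR-324-3p was held by 22.5% of them. The 3′ untranslated regions were 1080 to 3432 bases long in the leading transcripts with a match, and 165 to 1653 bases in those without. For miR-324-5p, the leading transcripts held no match of either kind, which 13.9% of the tested genes had. The minor transcript Sufu-204, at a mean of 0.0335 TPM, held 1 match to miR-324-5p that meets both definitions. These shares were counted in the longest 3′ untranslated region of each gene. A match of letters is a description and does not show that the strand binds there.

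Abundance was measured as TPM, a normalized transcript abundance that is relative to a fixed library total and allows for transcript length, so levels can be set beside each other between genes. The read depth is unknown from TPM, so no counting interval is given. Between 13386 and 14299 genes per library reached 1 TPM, and haemoglobin genes took up 11.2% to 19.7% of the TPM of wild-type and 15.8% to 26.1% of that of null libraries. Wild-type mouse 1 had the lowest haemoglobin share and the most genes at 1 TPM. The labelled cell type was checked against 13 cartilage markers. Prg4 (2902 TPM in wild-type), Comp (235 TPM), Acan (146 TPM) and Col2a1 (91.4 TPM) were present in every library. Matn1 and Matn3 reached at most 0.822 TPM and were listed at 0 in 1 and 2 libraries. Col9a1 reached at most 0.953 TPM. Markers of some other cells were higher in sum. In wild-type libraries 9 neutrophil markers took up 56561 to 111581 TPM, and 11 osteoblast and osteocyte (bone cell) markers 5415 to 12918. The 13 cartilage markers took up 2038 to 6335. The libraries thus did not hold chondrocyte RNA alone, and levels given below are those of the dissected tissue. The absence of Mir324 itself was not analysed here.

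The tissue expressed the co-receptor Gas1 far above the other 8 genes, while the 3 Gli factors were the lowest. Averaged over the 10 mice, Gas1 was at 75.1 TPM, followed by Cdon at 13.6, Smo at 13.2, Sufu at 7.56, Ptch1 at 6.24, Boc at 4.29, Gli1 at 2.25, Gli2 at 1.25 and Gli3 at 0.936 TPM. Among the 13841 genes that averaged 1 TPM or more, 88.9% lay below Gas1, 49.8% below Smo and 3.19% below Gli2. The order held in 10 of 10 libraries for Gas1 over Cdon, Smo over Sufu, Ptch1 over Boc, Boc over Gli1 and Gli1 over Gli2. It held in 8 of 10 for Sufu over Ptch1 and for Gli2 over Gli3, and in 6 of 10 for Cdon over Smo. The order was counted within each library and was not tested.

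**Figure D1:**
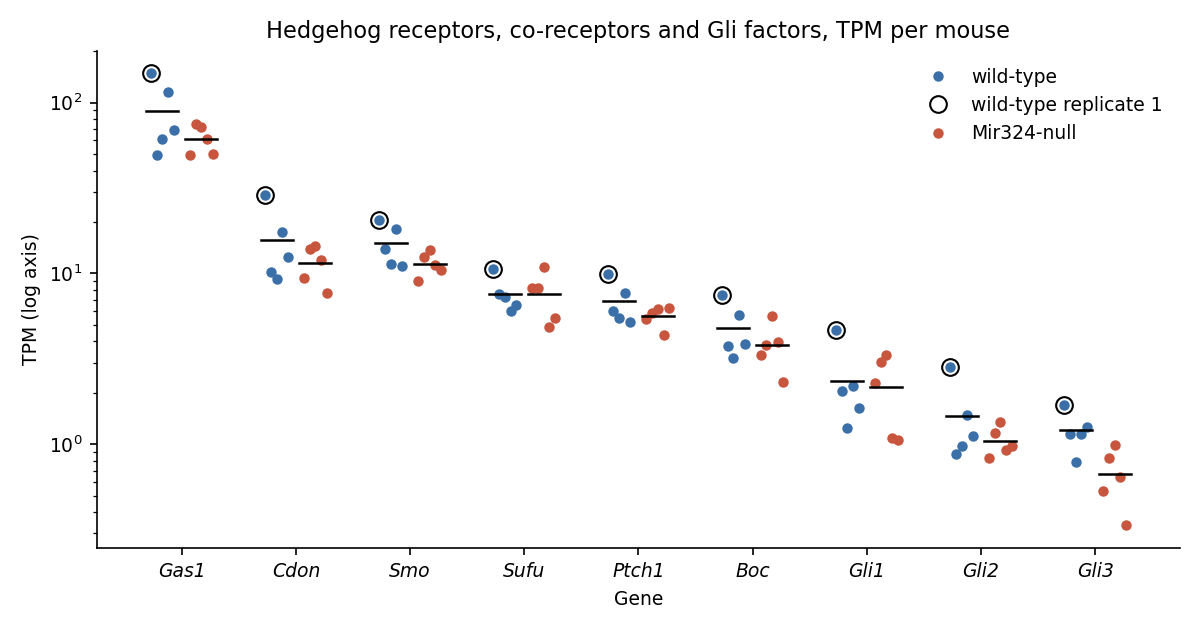
TPM of each gene (log axis) in each of the 10 mice, with genes in order of their mean, black lines at the group means and wild-type replicate 1 ringed. Gas1 stands above the other genes in every mouse, and the ringed mouse is the highest of the 10 for 8 of the 9 genes, Sufu being the exception.

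The comparison between genotypes asked whether receiving and transducing genes of the pathway differ in tissue dissected as knee cartilage from mice that lack miR-324. None of the 9 passed the test at an adjusted p under 0.05. Of the 8 that averaged 1 TPM or more, 0 had an adjusted p under 0.05 and 0 had an unadjusted p under 0.05 by limma, beside 0.0% and 11.6% of all genes tested. Gli3, below that level, had an exact permutation p of 0.0238. The point estimate was below 0 in null mice for 9 of 9 genes, where 60.0% of all genes tested were also below 0, and the median difference was -0.26 on the log2(TPM + 1) scale, against -0.05 over all genes tested. After median ratio scaling, which brought the median of all genes to 0.0033, 8 of the 9 were below 0 and 49.3% of all genes were, with Sufu at 0.010. Quantile normalization put 7 of 9 below 0, with Gli1 at 0.0073 and Sufu at 0.038, where 6803 of 13841 genes were below 0. Rescaling without haemoglobin genes put 8 of 9 below 0, with Sufu at 0.042, where 5876 of 13835 genes were. Values for wild-type and null mice overlapped for all 9 genes, and 1.06% of tested genes were lower in null mice with no overlap. In tissue RNA, fewer cells of a type and less RNA per cell cannot be told apart.

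A single library bears on each of these differences. Wild-type mouse 1 was the highest of the 10 mice for 8 of 9 genes, from 1.68 times the median of the other 9 mice for Ptch1 to 2.91 times for Gli2, and it was second for Sufu at 1.47 times. Without it the median difference was -0.09, against -0.02 over all genes tested. Of the 9 estimates 7 were below 0, where 7461 of 13841 genes tested were, with Gli1 at 0.13 and Sufu at 0.08. The direction of Gli1 and Sufu also turned when null mouse 4 or null mouse 5 was left out.

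**Figure D2:**
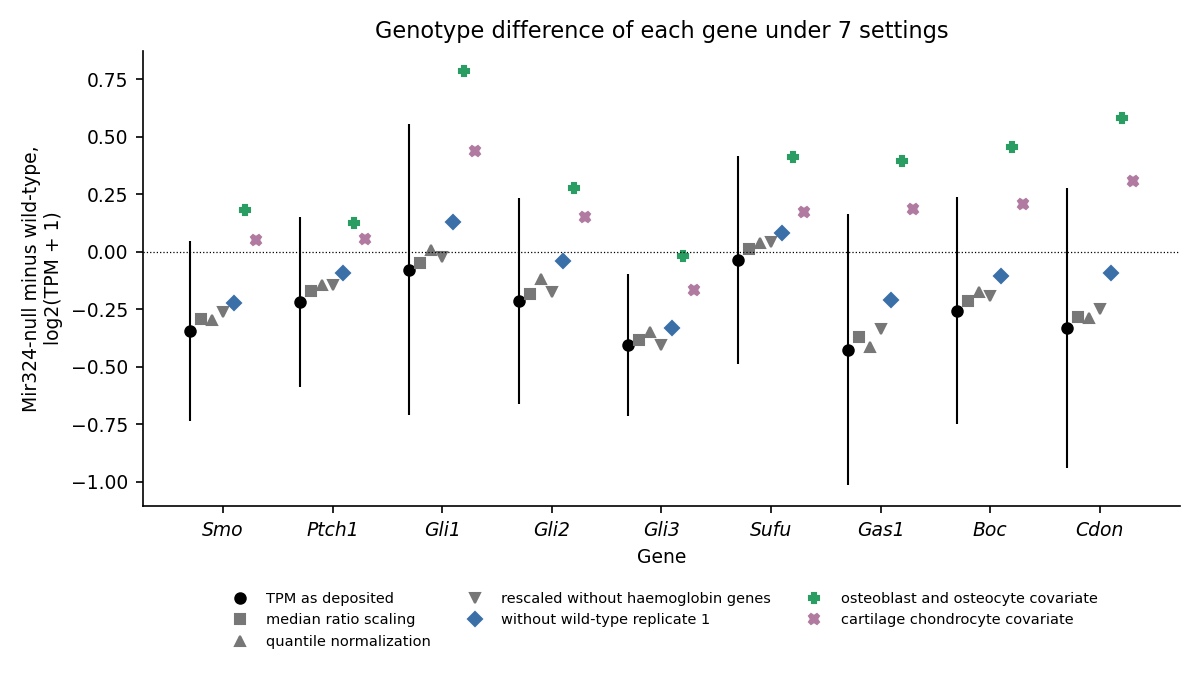
Difference of null from wild-type mice for each gene in log2(TPM + 1), as fitted to the deposited TPM (black circles, with 95% confidence intervals from limma, for Gli3 from the fit with no filter on low values) and under 6 other settings. The intervals of 8 genes cross 0 and that of Gli3 does not, and the estimates with an osteoblast or cartilage score as a covariate lie higher than the black circles for every gene.

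Ptch1 (ENSMUSG00000021466, chr13:63508328-63573598, minus strand), the Hedgehog receptor and itself a target of the pathway, was measured at 9.88, 6.02, 5.50, 7.67 and 5.18 TPM in wild-type mice 1 to 5. In null mice 1 to 5 it was at 5.40, 5.87, 6.22, 4.36 and 6.29 TPM. Wild-type mice 1 and 4 lay above every null mouse, and the other 3 lay within the null range. The means were 6.85 ± 1.95 and 5.63 ± 0.791 TPM (SD, n = 5 each), a difference of -0.22 on the log2(TPM + 1) scale (SE 0.169, 95% interval -0.59 to 0.15), with an adjusted p of 0.681 by limma. Without wild-type mouse 1 the difference was -0.09.

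Smo (ENSMUSG00000001761, chr6:29735503-29761365, plus strand), the membrane protein that Ptch1 restrains, was at 20.6, 13.8, 11.4, 18.2 and 10.97 TPM in wild-type mice 1 to 5. In null mice 1 to 5 it was at 9.01, 12.5, 13.7, 11.3 and 10.4 TPM. All 5 null mice lay below the wild-type mean, yet wild-type mice 3 and 5 were inside the null range. The means were 15.0 ± 4.25 and 11.4 ± 1.80 TPM (SD, n = 5 each), and the difference of -0.34 (log2(TPM + 1), SE 0.179, 95% interval -0.74 to 0.05) had an adjusted p of 0.495 by limma, the lowest of the 8 genes in that fit. Its exact permutation p was 0.127, and without wild-type mouse 1 the difference was -0.23. Smo carries a 7mer-m8 match to miR-324-3p, shown above, and whether that match bears on its level was not tested.

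The co-receptors are cell surface proteins that present Hedgehog to Ptch1, Gas1 by a lipid anchor and Cdon and Boc as related members of the immunoglobulin superfamily. Gas1 (chr13:60174405-60177365, minus strand) was at 148, 49.4, 61.3, 115 and 69.3 TPM in wild-type mice 1 to 5. In null mice it was at 49.1, 74.7, 72.1, 60.9 and 50.1 TPM. Wild-type mice 1 and 4 stood above the other 8 mice, which ranged together. The difference was -0.43 on the log2(TPM + 1) scale (SE 0.270, 95% interval -1.02 to 0.16, adjusted p = 0.599 by limma), and it was -0.21 without wild-type mouse 1.

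Cdon (chr9:35421128-35507652, plus strand) showed the same 2 high wild-type mice. It was at 28.9, 10.3, 9.23, 17.5 and 12.5 TPM in wild-type and at 9.45, 13.9, 14.5, 11.9 and 7.67 TPM in null mice 1 to 5. The difference was -0.33 (log2(TPM + 1), SE 0.279, 95% interval -0.94 to 0.28, adjusted p = 0.717 by limma), and -0.09 without wild-type mouse 1. Boc (chr16:44485049-44558897, minus strand) was at 7.47, 3.77, 3.19, 5.68 and 3.84 TPM in wild-type and at 3.31, 3.81, 5.59, 3.95 and 2.33 TPM in null mice 1 to 5. Null mouse 3 lay among the high values of Boc, so that the groups overlapped widely. Its difference was -0.26 (log2(TPM + 1), SE 0.226, adjusted p = 0.737 by limma), and -0.11 without wild-type mouse 1.

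The levels of the co-receptors moved together from mouse to mouse. Among genes of like level, within 0.25 of the mean log2(TPM + 1), 96.2% varied less within the genotypes than Gas1 did and 95.3% less than Cdon did. That spread was larger in wild-type mice, where the SD was 46.9% of the mean for Gas1 and 51.4% for Cdon. In null mice it was 19.5% and 25.4%. The mixture of the 3 co-receptors was steadier. Gas1 made up 81.1% ± 2.23 of the summed TPM of the 3 genes in wild-type and 80.2% ± 1.99 in null mice, Cdon 14.3% ± 1.68 and 14.9% ± 1.21, and Boc 4.58% ± 0.783 and 4.91% ± 0.908 (SD, n = 5 each). A share does not depend on how libraries are scaled. None of these shares differed by the exact permutation test, with an adjusted p of 0.667 for each over the 6 shares compared.

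Sufu (chr19:46396896-46488804, plus strand), which holds Gli proteins inactive in the cytoplasm, was at nearly the same mean in both genotypes. It was at 10.7, 7.55, 7.23, 6.01 and 6.51 TPM in wild-type and at 8.23, 8.19, 10.9, 4.86 and 5.44 TPM in null mice 1 to 5. The highest mouse was null mouse 3 and the lowest was null mouse 4, so over all transcripts the null values enclosed the wild-type ones. The means were 7.59 ± 1.82 and 7.52 ± 2.44 TPM (SD, n = 5 each), a difference of -0.04 (log2(TPM + 1), SE 0.207, 95% interval -0.49 to 0.42) with an adjusted p of 0.973 by limma. In null mouse 3 Sufu-205, a processed transcript annotated as non-coding, held 32.6% of Sufu, at 3.55 TPM. On protein-coding transcripts alone Sufu was at 9.005 TPM in wild-type mouse 1, the highest mouse, and at 7.34 TPM in null mouse 3, and the difference was -0.15 (adjusted p = 0.749 by limma). The interval over all transcripts includes differences in either direction. Sufu carries a 7mer-m8 match to miR-324-3p, as Smo does, and whether that match bears on its level was not tested.

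Gli1 (chr10:127329882-127341974, minus strand), a transcriptional activator that is also the usual readout of an active pathway, had the largest coefficient of variation of the 9 genes in both genotypes. It was at 4.65, 2.04, 1.24, 2.18 and 1.63 TPM in wild-type and at 2.28, 3.03, 3.33, 1.08 and 1.06 TPM in null mice 1 to 5. Over all transcripts the null mice fell into 3 with more than 2 TPM and 2 near 1 TPM, and wild-type mouse 1 exceeded them all. Gli1-205, a retained-intron transcript, held up to 17.4% of Gli1 in wild-type and up to 21.8% in null mice. On protein-coding transcripts alone null mouse 1 was at 1.79 TPM. The coefficient of variation over all transcripts was 57.0% in wild-type and 49.3% in null mice. The difference was -0.08 (log2(TPM + 1), SE 0.290, 95% interval -0.71 to 0.55, adjusted p = 0.958 by limma), and it was -0.18 on protein-coding transcripts alone (adjusted p = 0.821 by limma).

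Gli2 (chr1:118834132-119053619, minus strand), the main activator of the family, was at 2.84, 0.876, 0.970, 1.48 and 1.11 TPM in wild-type and at 0.829, 1.16, 1.35, 0.930 and 0.975 TPM in null mice 1 to 5. Apart from wild-type mouse 1, the mice of both genotypes lay between 0.829 and 1.48 TPM. The difference was -0.21 (log2(TPM + 1), SE 0.205, 95% interval -0.66 to 0.23, adjusted p = 0.768 by limma), and -0.04 without wild-type mouse 1.

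Gli3 (ENSMUSG00000021318, chr13:15463235-15730026, plus strand), the main repressor of the family when no Hedgehog is bound, had the smallest exact permutation p of the 9 genes. It was at 1.69, 1.14, 0.785, 1.15 and 1.26 TPM in wild-type and at 0.532, 0.829, 0.995, 0.644 and 0.335 TPM in null mice 1 to 5. Wild-type mouse 3 lay below null mice 2 and 3, and the other 4 wild-type mice lay above every null mouse. The means were 1.21 ± 0.326 and 0.667 ± 0.256 TPM (SD, n = 5 each), and the difference was -0.41 on the log2(TPM + 1) scale, where a low gene's change is understated, and -0.80 with a pseudocount of 0.1. The two-sided exact permutation p was 0.0238, not adjusted for the other genes, where the smallest p possible with 5 against 5 mice is 0.00794. With no filter on low values limma gave an unadjusted p of 0.0152 and an adjusted p of 0.500, in a fit where 8.6% of genes had an unadjusted p under 0.05, so the difference did not pass the test. Without wild-type mouse 1 the difference was -0.33 and the exact permutation p was 0.0556 (n = 4 and 5).

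The composition of the Gli factors was compared as the share of each in their sum. Gli3 made up 18.4%, 28.1%, 26.2%, 23.9% and 31.6% of the summed TPM of the 3 factors in wild-type mice 1 to 5. In null mice 1 to 5 it made up 14.6%, 16.5%, 17.5%, 24.3% and 14.2%. Null mouse 4 lay among the wild-type mice, and wild-type mouse 1, the highest mouse for each Gli gene in TPM, had the lowest wild-type share. The mean share was 25.6% ± 4.93 in wild-type and 17.4% ± 4.07 in null mice (SD, n = 5 each), a difference of -8.22 percentage points with an exact permutation p of 0.0238 and an adjusted p of 0.143 over the 6 shares. With protein-coding transcripts alone the difference was -6.42 points (exact permutation p = 0.0794). The share of Gli1 was 45.7% ± 4.71 and 53.4% ± 10.0 (exact permutation p = 0.159, adjusted p = 0.476), and that of Gli2 was 28.7% ± 4.30 and 29.2% ± 8.47 (adjusted p = 0.905).

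**Figure D3:**
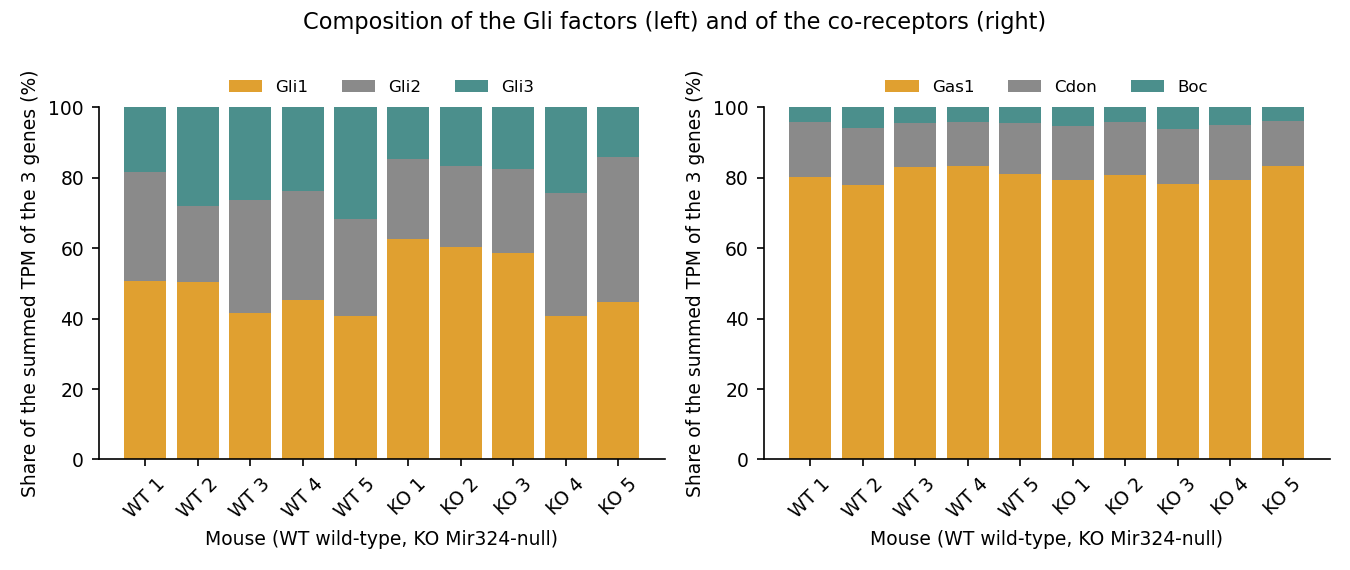
Share of each gene in the summed TPM of Gli1, Gli2 and Gli3 (left) and of Gas1, Cdon and Boc (right), in percent, with 1 bar per mouse. The Gli3 segment is between 18.4% and 31.6% in wild-type and between 14.2% and 24.3% in null mice, and Gas1 takes up about the same share of the co-receptors in every mouse.

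TPM was deposited per transcript, which shows which forms the 9 gene levels are made of. For Smo, Gli2, Gas1 and Boc 1 transcript held at least 94.97% of the gene's TPM in every mouse. Smo-202, a retained-intron transcript, held the rest of Smo. Ptch1 and Cdon each had a pair of coding transcripts with different starts. Ptch1-202 held between 52.1% and 85.6% of Ptch1, and Ptch1-201 held 8.49% to 22.7% in wild-type and 13.5% to 38.4% in null mice. In null mouse 5, Ptch1-209, a processed transcript annotated as non-coding, held 32.9% of Ptch1, at 2.07 TPM. Ptch1-201 and Ptch1-202 carry the 7mer-A1 match shown above.

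For Cdon, Cdon-202 held 43.3% ± 7.36 of the gene's TPM in wild-type and 54.8% ± 7.76 in null mice (SD, n = 5 each). The ranges were 36.3% to 52.7% and 44.9% to 62.1%, so they overlapped. In TPM, Cdon-201 was at 8.26 ± 3.70 in wild-type and 4.91 ± 0.769 in null mice, and Cdon-202 at 7.15 ± 4.62 and 6.46 ± 2.38. The split of a gene's reads between transcripts that share most of their sequence is an estimate, and these shares were described without a test. Promoters listed by RefSeq (GRCm38.p6), 250 bases before to 50 after the start, were found for 7 of the 9 genes, Gli1 and Boc being without one. The Gli-binding letters GACCACCCA, on either strand, were in 0 of the 7 and in 0.253% of 32851 promoters, which says only that these letters are not in those windows.

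**Figure D4:**
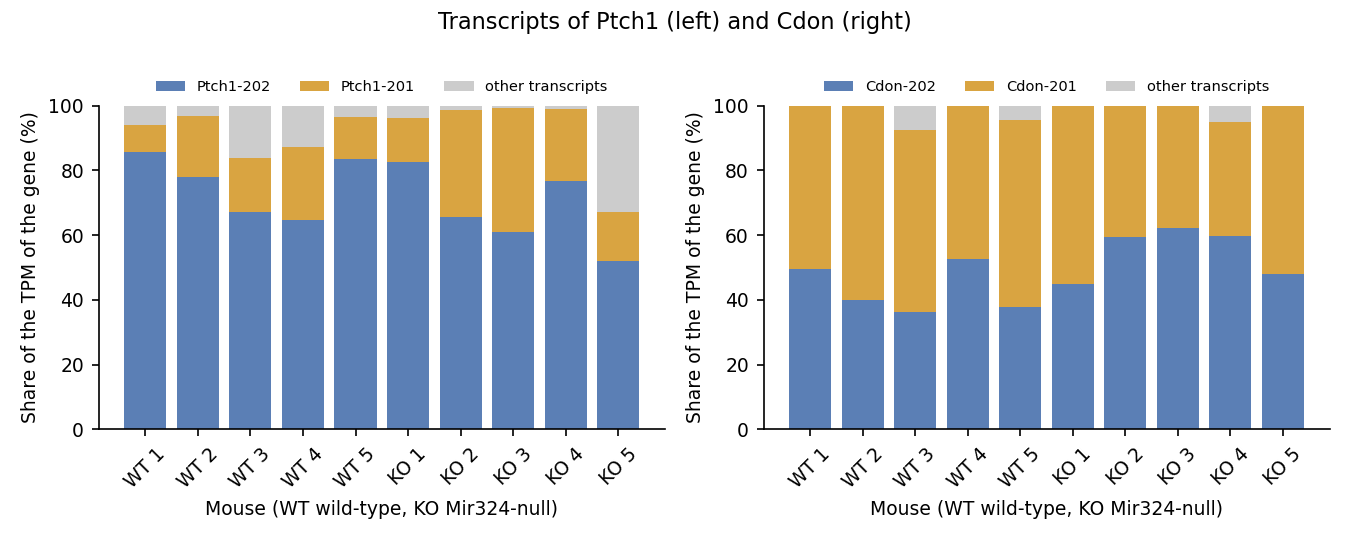
Share of the TPM of Ptch1 (left) and of Cdon (right) that each transcript held, in percent, with 1 bar per mouse. Ptch1-202 leads in every mouse, at 52.1% or more, whereas Cdon-201 and Cdon-202 hold similar parts, with Cdon-202 between 36.3% and 62.1%.

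Across the 10 mice, the levels of the 9 genes varied together. The Pearson correlation of log2(TPM + 1) had a median of 0.781 over the 36 pairs of the 9 genes, between 0.357 and 0.948, against a median of 0.189 over all pairs of tested genes. By permutation, 24 of the 36 had an adjusted p under 0.05 for Pearson's r and 4 for Spearman's rho. Without wild-type mouse 1 the median was 0.576, against 0.180 over all pairs. The mice share library scaling and tissue composition, and these are correlations of levels over animals and do not show that 1 gene controls another.

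The closest pair was Boc and Cdon, the related co-receptors, with r = 0.948 (permutation adjusted p = 0.00072) and rho = 0.952 (adjusted p = 0.0036) over 10 mice, and r was 0.88 without the 2 mice farthest from the median of Boc. Gli1 and its inhibitor Sufu had r = 0.875 (permutation adjusted p = 0.00512) and rho = 0.879 (adjusted p = 0.0212), and r was 0.799 without the 2 farthest mice. Gli1 and Ptch1, both known targets of the pathway, had r = 0.693 (permutation p = 0.0243, adjusted p = 0.0364) and rho = 0.43 (permutation p = 0.219, adjusted p = 0.292). Without the 2 mice farthest from the median of Ptch1, wild-type mouse 1 and null mouse 4, r was 0.17, so that over all transcripts the relation rests on those mice. Within genotypes r was 0.724, and it was 0.413 without wild-type mouse 1. It was closer on protein-coding transcripts alone, with r = 0.923 (permutation p = 0.00031) and rho = 0.903 (permutation p = 0.00077), and there r was 0.818 without the 2 farthest mice, wild-type mouse 1 and null mouse 5, and 0.855 without wild-type mouse 1. In null mouse 5 the non-coding Ptch1-209 made up 2.07 of the 6.29 TPM of Ptch1.

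The levels of most of the 9 genes also followed the levels of cartilage and bone markers in a library. A score was taken as the mean log2(TPM + 1) of a list's marker genes above the TPM filter. With the cartilage score, r over the 10 mice lay between 0.385 for Sufu and 0.967 for Smo, with a median of 0.878 where all tested genes had a median of 0.247. With the score of osteoblasts and osteocytes, the cells embedded in bone, r lay between 0.480 for Sufu and 0.960 for Gli3, with a median of 0.831. An r above 0.8 with the cartilage score was reached by 6 of the 9 genes and 9.41% of all genes tested, and with the bone score by 5 of the 9 and 10.1%. By permutation, r had an adjusted p under 0.05 for 7 of the 9 genes with the cartilage score and 6 with the bone score. With the other scores the median r of the 9 genes ran from -0.520 (erythroid) to 0.757 (hypertrophic chondrocyte). It was 0.653 for the adipocyte, 0.626 for the fibroblast and 0.571 for the osteoclast score.

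Smo had r = 0.967 (permutation adjusted p = 0.00248 over 99 relations) and rho = 0.915 (adjusted p = 0.0181) with the cartilage score, and r was 0.914 without the 2 mice with the most extreme scores. Gli3 had r = 0.960 (permutation adjusted p = 0.00248) and rho = 0.952 (adjusted p = 0.0148) with the bone score, and r was 0.906 without the 2 most extreme mice. Within genotypes the values were 0.956 and 0.915. Gli3 was also the member with the strongest inverse relation to the erythroid score, at r = -0.83. Gli1 had r = 0.905 (permutation adjusted p = 0.00681) and rho = 0.867 (adjusted p = 0.0316) with the score of connective tissue fibroblasts, and r was 0.853 without the 2 most extreme mice.

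**Figure D5:**
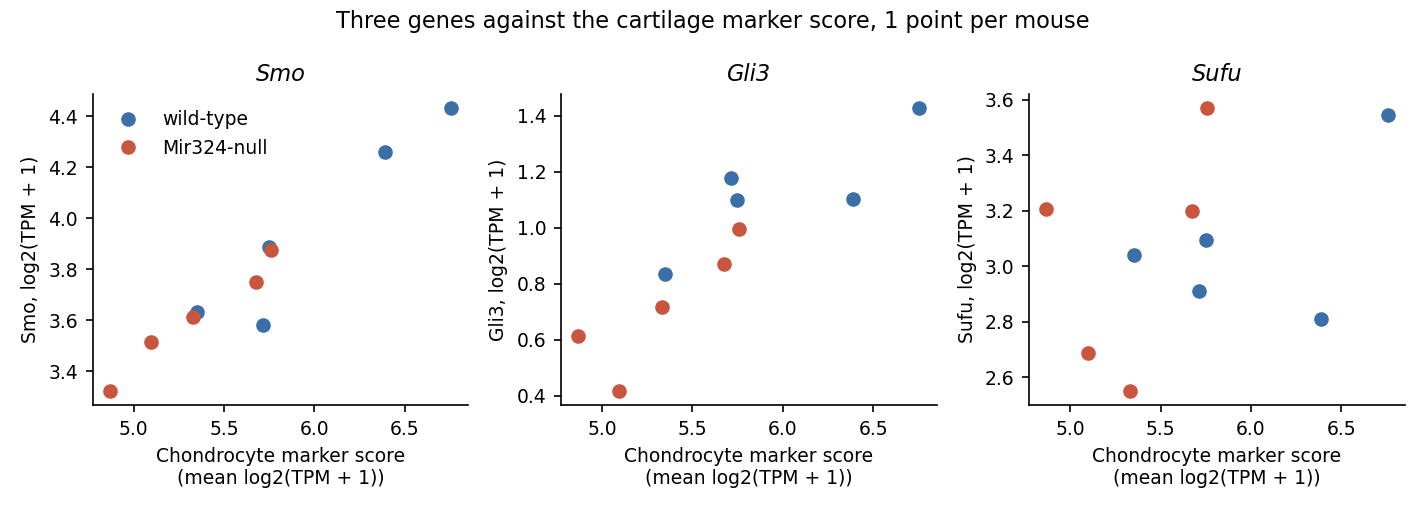
Level of Smo, Gli3 and Sufu in log2(TPM + 1) against the cartilage marker score, the mean log2(TPM + 1) of the marker genes, with 1 point per mouse. Smo and Gli3 lie close to a line through both genotypes (r of 0.967 and 0.886 over 10 mice), whereas Sufu scatters (r = 0.385).

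The estimates of most cartilage and bone markers lay in the same direction as those of the 9 genes. The summed TPM of the 13 cartilage markers was 2038 to 6335 in wild-type and 1686 to 3038 in null mice. Most of that sum was Prg4, at 1564 to 5075 TPM in wild-type and 1335 to 2319 TPM in null mice. Of the 10 cartilage markers that passed the filter, 9 had an estimate below 0. The summed TPM of the 11 osteoblast and osteocyte markers was 5415 to 12918 in wild-type and 3086 to 6149 in null mice, with 11 of 11 below 0. Erythroid markers summed to 112714 to 198907 TPM in wild-type and 159317 to 263709 in null mice, with 9 of 9 above 0. Estimates were also below 0 for 5 of 5 hypertrophic chondrocyte, 6 of 6 osteoclast, 5 of 5 adipocyte, 8 of 8 B lineage, 5 of 6 endothelial and 7 of 9 neutrophil markers. They were below 0 for 3 of 8 fibroblast markers, and 2 of 8 skeletal muscle markers passed the filter. In each of these lists 0 markers had an adjusted p under 0.05 by limma, in a fit where 11.6% of all genes tested had an unadjusted p under 0.05. An unadjusted p under 0.05 was found for 11 of 11 osteoblast and osteocyte, 6 of 6 osteoclast, 6 of 9 erythroid, 6 of 10 cartilage, 4 of 5 adipocyte, 4 of 8 B lineage, 3 of 5 hypertrophic chondrocyte and 2 of 6 endothelial markers, and for 0 neutrophil, fibroblast and muscle markers. The marker lists were chosen with earlier results of these data known, so these counts are a description and not independent evidence.

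With the bone score as a covariate, 1 of the 9 estimates was below 0, where 4381 of 13841 genes tested were. The median was 0.39, against 0.09 over all genes tested, and Gli3 was at -0.02. With the cartilage score 1 of 9 was below 0, where 6212 of 13841 genes were. The median was 0.17, against 0.02 over all genes tested, and Gli3 was at -0.17. With the erythroid score 5 of 9 were below 0, where 4189 of 13841 genes were. The median was -0.0045, against 0.13 over all genes tested. Genotype and tissue composition moved together in these 10 libraries and cannot be told apart.

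For each gene, the 3 genes with the most similar profile over the 10 mice were taken from 10333 genes that averaged 5 TPM or more, as a description. Cdon was most like Tnfrsf11b, the decoy receptor that limits osteoclast formation, at r = 0.986, then Fibin at 0.976 and Anxa8 at 0.976. Boc was most like Scara3 at 0.980, Pdgfrl at 0.977 and Pcsk5 at 0.974. Gas1 was most like Ccn2, a matrix-associated growth factor, at 0.966, Bcat1 at 0.960 and Ntn4 at 0.949. Smo was most like Wtip at 0.974, Vkorc1 at 0.973 and Cst3 at 0.971.

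The nearest genes of Ptch1 were those of ribosomal proteins, Rpl27 at r = 0.951, Rps29 at 0.939 and Rps28 at 0.935. Spearman's rho was 0.879, 0.600 and 0.697 in that order, and r without wild-type mouse 1 was 0.930, 0.848 and 0.839. Over all 10 mice, Gli1 was most like Atf7 at r = 0.976, Hspb8 at 0.969 and Klc1 at 0.960. Gli2 was most like C4b, a complement component, at 0.978, Ephx1 at 0.976 and Rps28 at 0.972. Gli3 was most like Srp14 at 0.978, Mef2a, a transcription factor of muscle and chondrocytes, at 0.971 and S1pr3 at 0.970. Sufu was most like Gm21988 at 0.953, Gnl2 at 0.951 and Ptbp2 at 0.943.

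Of the other pathway genes, 71 were listed and 53 passed the filter, of which 40 had an estimate below 0 and 13 above. None had an adjusted p under 0.05 by limma (the smallest was 0.338), and 4 of those below 0 and 1 above had an unadjusted p under 0.05, beside 7.3% and 4.28% of all genes tested. The median was -0.13 on the log2(TPM + 1) scale, and -0.07 without wild-type mouse 1, which was the highest mouse for 21 of the 53. In 4 of the lists by role, among genes past the filter, estimates were below 0 for 3 of 4 genes of ligands and their release, 7 of 10 ciliary transducers, 15 of 24 kinases and ubiquitin ligases, and 13 of 13 genes known to respond to Hedgehog, where 60.0% of all genes tested were below 0. The list of responsive genes has 20 genes, and of the 7 below the filter Pthlh, at 0.16, Mycn, at 0.10, Nkx3-2, at 0.10, and Foxf2, at 0.03, had a difference above 0 (log2(TPM + 1)). These 4 were named after their values were seen.

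Of the ligands, Ihh, which is Indian hedgehog, was the one that averaged over 1 TPM, at 4.08 ± 2.05 TPM in wild-type and 2.97 ± 1.07 in null mice (SD, n = 5 each). Its values were 6.78, 5.05, 1.28, 4.09 and 3.23 TPM in wild-type and 2.82, 3.24, 4.62, 1.76 and 2.43 TPM in null mice 1 to 5. The lowest and the highest mouse were both wild-type, and the difference of -0.28 (log2(TPM + 1), SE 0.303) had an adjusted p of 0.796 by limma and was -0.10 without wild-type mouse 1. Shh was listed at 0 in 6 of 10 libraries and Dhh was at 0.136 and 0.151 TPM on average. Hhip, which binds and sequesters Hedgehog proteins, averaged 0.771 ± 0.551 and 1.10 ± 0.725 TPM in the wild-type and the null group.

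Among genes that respond to Hedgehog, Nr2f2, a nuclear receptor, was lower in null mice with no overlap, as were 1.06% of all genes tested. Nr2f2 was named because its unadjusted p by limma was under 0.05, so the lack of overlap is a description. It was at 5.20, 3.53, 3.94, 3.44 and 4.13 TPM in wild-type and at 3.32, 3.11, 3.11, 2.17 and 1.83 TPM in null mice 1 to 5, a difference of -0.45 (log2(TPM + 1), SE 0.161, limma adjusted p = 0.342). Tnfsf11, the ligand that drives osteoclast formation, was at 3.48 ± 0.899 and 2.04 ± 0.642 TPM (difference -0.56, limma adjusted p = 0.338). Sox9, the master transcription factor of chondrocytes, was at 10.1 ± 5.73 and 5.46 ± 0.804 TPM (difference -0.66, limma adjusted p = 0.382), with 19.8 TPM in wild-type mouse 1, without which the difference was -0.40. Osr1, a transcription factor of connective tissue, was at 1.28 ± 0.320 and 0.774 ± 0.177 TPM (difference -0.36, limma adjusted p = 0.425). Foxc2, a forkhead factor of skeletal mesenchyme, was at 2.55 ± 1.32 and 1.38 ± 0.558 TPM (difference -0.54, limma adjusted p = 0.436) and did not reach an unadjusted p under 0.05. Without wild-type mouse 1, its highest, the difference of Foxc2 was -0.35. Several of these genes are also expressed by osteoblasts or chondrocytes, whose marker estimates were below 0 in the null libraries, and the part of that in these differences was not tested.

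Btrc, the substrate-binding part of a ubiquitin ligase that acts on Gli2 and Gli3, was the 1 gene of the list with an estimate above 0 and an unadjusted p under 0.05. It was at 21.9, 20.4, 30.3, 22.2 and 26.8 TPM in wild-type and at 32.4, 29.5, 30.7, 29.97 and 27.7 TPM in null mice 1 to 5. Wild-type mouse 3 lay among the null mice and the other 4 wild-type mice lay below them. The difference was 0.31 (log2(TPM + 1), SE 0.114), with an exact permutation p of 0.0317 and an adjusted p of 0.351 by limma, so it did not pass the test.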

How the data were processed

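The authors deposited TPM values per transcript, 1 column per mouse, for 116912 versioned mouse Ensembl transcripts. Per the submitters' processing notes, kallisto and DESeq2 were used and the build was GRCh38, a human build, although the identifiers are those of mouse. Versions, the transcript index and read layout were not given in the sources used here. Each column summed to 1000000 TPM, so abundant transcripts lower the TPM of all others, and read depth is unknown. Identifiers without their version were matched to GENCODE M21 (GRCm38), where 115440 matched, and the 1472 unmatched held 0.275% to 0.356% of a library's TPM and were left out. The table's annotation version differs for all but 13 transcripts, so coordinates are those of GRCm38 and GENCODE.

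TPM was summed per gene and analysed as log2(TPM + 1). All 13841 genes averaging 1 TPM or more were fitted with limma 3.58.1 in R 4.3.3 (lmFit and eBayes with a trend), two-sided, with Benjamini-Hochberg adjustment over all of them and a threshold of 0.05. Gli3, at a mean of 0.936 TPM, lay below this filter and was tested with an exact permutation test over the 252 splits of 10 mice into 5 and 5. The limma p given for it comes from a fit of 23980 genes with no filter. Shares were tested with the same exact test, adjusted over 6, and correlations with 100000 permutations, adjusted over 36 pairs or 99 relations. Other steps ran in Python 3.11.15 with scipy 1.17.1. The limma step was tested on simulated data.

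Groups came from the mice's labels, which give no pairing by replicate number. Deviations of same-numbered mice from their group means correlated between -0.14 and 0.06, which with 5 pairs cannot exclude a pairing. Members, pathway lists, 11 marker lists and tests were chosen with earlier results of these data known. Named beside the 9 genes were the 3 ligands, Hhip, the other pathway genes with an unadjusted p under 0.05 (or the 6 smallest), and the 3 nearest genes of each member, and 1 result under this rule is not reported here. Alternatives were another pseudocount, filters, scalings, covariates, protein-coding transcripts alone, no trend, a replicate block and leaving out each mouse.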

Additional observations from a re-analysis of the deposited data

Results flagged for a closer look

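Of 30 sets of 5 mice examined over the 9 genes and 6 shares, 2 held a mouse far from the other 4, where chance gives about 1 in 20. The share of Boc among the co-receptors was 5.95% in wild-type mouse 2, above the other wild-type mice by 0.766 of the range of the 5. The share of Cdon was 12.8% in null mouse 5, below the other null mice by 0.777 of their range. The limit for 5 mice is 0.710. Neither share differed between genotypes.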

How the results depend on the processing

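No member had an adjusted p under 0.05 under any of the 22 alternatives run for that count. With the cartilage, erythroid and bone scores as covariates, the members below 0 numbered 1, 5 and 1. Of 13841 genes tested, 6212, 4189 and 4381 were below 0 in those fits. With the cartilage and bone scores the estimates were 0.049 and 0.18 for Smo, 0.053 and 0.13 for Ptch1, 0.18 and 0.39 for Gas1, and 0.21 and 0.46 for Boc. With the cartilage, erythroid and bone scores they were 0.44, 0.63 and 0.78 for Gli1, 0.15, 0.093 and 0.28 for Gli2, -0.17, -0.12 and -0.018 for Gli3, 0.17, 0.35 and 0.41 for Sufu, and 0.31, 0.20 and 0.58 for Cdon. Gli1 was at 0.0073 after quantile normalization, and Sufu was at 0.010 after median ratio scaling, 0.038 after quantile normalization and 0.042 without haemoglobin genes. With protein-coding transcripts alone Gli1 was at -0.18 and Sufu at -0.15. Leaving out 1 mouse at a time gave -0.21 to 0.13 for Gli1, -0.17 to 0.087 for Sufu and -0.48 to -0.33 for Gli3. The cause was not tested.

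The genes at an unadjusted p under 0.05 numbered 1603, and 544 and 882 with the cartilage and bone scores. The pathway genes among them numbered 5, and 1, 2 and 2 with the cartilage, erythroid and bone scores, 2 at a mean of at least 5 TPM (fewer genes tested), 9 with protein-coding transcripts alone and 3 to 9 when 1 mouse was left out (3 without null mouse 1 or 5 or wild-type mouse 2 or 4, 8 without wild-type mouse 3, 9 without null mouse 3). The Gli3 share differed by -6.42 points with protein-coding transcripts alone, and by -10.0 to -6.73 points when 1 mouse was left out, with an exact permutation p of 0.0556 without wild-type mouse 5 or null mouse 1 or 5. The Gli2 share ranged from -2.53 to 2.08 points. The correlation of Gli1 and Ptch1 was 0.474 after median ratio scaling, 0.320 after quantile normalization, 0.583 without haemoglobin genes, 0.923 with protein-coding transcripts alone, and 0.413 to 0.788 when 1 mouse was left out.

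With the replicate block, 1168 genes had an unadjusted p under 0.05, the adjusted p was 0.680 for Smo, and 0 members passed. None of the 5 wild-type mice was most like the null mouse of its own number. Depth is unknown from TPM, so the counting error of the Gli factors, near 1 TPM, is not known. The counts of members below 0, the pair correlations without wild-type mouse 1 and the further checks on protein-coding transcripts were chosen after the data had been seen.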
